A study of Mus musculus with 2 samples.

Results

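The genes described here encode the enzymes and transporters that build glycosaminoglycans, the sulfated sugar chains of cartilage proteoglycans, and that sulfate and edit them. The set was a list of 43 genes named by their place in the pathway and not by a rule on measured values, though with earlier results of these data known, and its members were the array spots whose deposited accession is a RefSeq transcript of one of these genes. Of the 43 genes, 42 had a probe, out of 20657 named genes with a probe on the array. Of the 42 genes, 40 were well above background on both arrays and 2, Chsy3 and Chst13, on neither, while no probe was matched to Slc35b2. Of all named genes with a probe, 67.1% were well above background on both arrays. In all, 51 probes of 1 spot each represented the 42 genes.

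Both groups were cultures of ATDC5, a line of mouse chondrogenic cells used to follow cartilage formation in a dish. The control group was a stable line in which doxycycline switches on GFP, and the other a stable line in which it switches on A-CEBP. A-CEBP binds C/EBP transcription factors as a dimer partner without DNA contact of its own, and so blocks them. Both lines were on 60 mm dishes, were given doxycycline at 2 µg/mL for 2 days and then differentiated for 3 weeks with ITS (insulin, transferrin and selenium). The labels do not say whether either line was 1 clone, and the transgene, the line and the culture cannot be told apart. No probe was named for either transgene, so their expression was not checked. Each group held 1 sample on 1 array, so no difference below has a replicate check, and no p-value was computed between the groups.

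Cells assemble chondroitin, dermatan and heparan sulfate on a core protein in the Golgi. Sulfate is taken up, activated to the donor PAPS and carried into the Golgi, UDP-sugars are supplied by their own enzymes and transporters, and a short linker is built on the core protein. The linker is then extended either as chondroitin or as heparan, and sulfotransferases, epimerases and extracellular sulfatases set the final pattern. Cartilage depends on this pathway because the sulfated chains of aggrecan hold the water of the matrix, and inherited loss of several of these genes disturbs skeletal growth.

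The upstream sequences of the members that differed most are shown because A-CEBP acts on factors that bind DNA. Of the 5 members at least 1.5-fold apart, 3 are printed, each as the 250 bases before a RefSeq start (GRCm38.p6, 5′ to 3′ on the gene's strand). Capitals mark ACGTG, a core of hypoxia response elements, and would also mark TTGCNNAA, a C/EBP-type site, either motif on either strand. Sulf1 and Slc26a2 are named only. Papss2 makes the sulfate donor and has 2 listed starts far apart, Extl1 encodes a heparan glycosyltransferase of the exostosin family, and Chst15 encodes a chondroitin sulfotransferase. Chst15 has 2 listed starts with overlapping windows, of which the upstream one is shown.
Papss2, first start, chr19:32595465-32595714, + strand: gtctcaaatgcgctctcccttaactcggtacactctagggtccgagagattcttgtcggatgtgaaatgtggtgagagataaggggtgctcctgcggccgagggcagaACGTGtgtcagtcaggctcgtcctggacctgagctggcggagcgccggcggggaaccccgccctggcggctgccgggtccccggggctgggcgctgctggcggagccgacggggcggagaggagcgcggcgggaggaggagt
Papss2, other start, chr19:32619755-32620004, + strand: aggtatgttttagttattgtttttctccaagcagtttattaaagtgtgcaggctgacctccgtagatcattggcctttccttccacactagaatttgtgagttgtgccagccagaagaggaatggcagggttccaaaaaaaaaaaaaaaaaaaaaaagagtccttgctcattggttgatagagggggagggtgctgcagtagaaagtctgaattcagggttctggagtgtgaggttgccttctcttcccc
Extl1, chr4:134372548-134372797, - strand: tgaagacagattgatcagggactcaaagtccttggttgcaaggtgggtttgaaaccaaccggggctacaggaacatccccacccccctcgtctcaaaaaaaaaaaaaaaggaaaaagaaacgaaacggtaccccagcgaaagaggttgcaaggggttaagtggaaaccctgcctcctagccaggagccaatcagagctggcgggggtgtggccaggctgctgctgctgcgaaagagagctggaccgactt
Chst15, chr7:132317229-132317478, - strand: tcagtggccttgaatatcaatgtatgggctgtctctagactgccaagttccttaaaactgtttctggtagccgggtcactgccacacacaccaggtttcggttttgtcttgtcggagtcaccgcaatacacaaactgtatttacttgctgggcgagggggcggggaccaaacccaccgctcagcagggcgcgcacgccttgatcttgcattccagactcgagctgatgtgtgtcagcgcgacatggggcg
None of these 4 windows held TTGCNNAA, and ACGTG occurred once, in the first Papss2 window, with the motif beginning 142 bases before the start. The absence of a match says only that these letters are not in these windows.

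Among all members, 44 windows of 35 genes were listed, and 3 of them (6.82%) held TTGCNNAA, against 9.56% of the 32851 windows in the RefSeq table. The matches are shown with up to 20 bases on either side within the window.
Chst7, chrX:20059384-20059431, + strand: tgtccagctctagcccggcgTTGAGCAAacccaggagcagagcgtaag
Extl2, chr3:116008268-116008296, + strand: agcttcttgggaaagcctttTTGCCTAAc
Hs6st2, chrX:51681823-51681852, - strand: cgTTGCAGAAtggaaattggcaaagagaga
These 3 genes differed by 0.32, 0.02 and -0.28 on the log2 scale (A-CEBP minus GFP), so the matches fell on members higher, level and lower. ACGTG did not overlap any TTGCNNAA match, although the Extl2 window held both motifs. It was in 9 of the 44 windows (20.5%) against 16.6% of all windows. A match is a description of the letters and not a site.

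Signals are given in scanner units and as log2 values relative to each array's 75th percentile, 872 units on the GFP array and 906 on the A-CEBP array. Of all 59305 non-control spots, 54.6% and 58.0% were well above background on these arrays, and none was saturated. The scanner's own error model gave the members a median error of 0.20 for a log2 difference (0.20 to 0.30), different probes of a gene differed with an SD of 0.19 (3601 genes), and the replicate spots of 287 probes gave an SD of 0.12. These errors cover the measurement only. The scanner error was nearly the same for most members (smallest 0.2040, median 0.2042). A rule of 2 scanner errors is thus a nearly fixed cutoff and not a measured spread of each gene. Of 12 chondrocyte markers, 11 were well above background on both arrays, among them Col2a1, Acan and Sox9, and Matn3 was on neither. The chondrocyte markers had a median log2 difference (A-CEBP minus GFP) of 0.63, with 8 of 11 at least 1.5-fold higher, none lower by that size, and 4 at least 2-fold higher: Ihh (1.56), Hapln1 (1.42), Acan (1.30) and Cnmd (1.02). Over all genes, 4.7% were at least 1.5-fold higher, 3.8% lower by that size, and 1.26% at least 2-fold higher. Col9a1, counted among the 8, gave 0.63 with its brighter probe but 0.19 with the other. The summed signal of the chondrocyte markers was 357 times the 75th percentile on the GFP array and 491 times on the A-CEBP array, most of it from Col2a1 (0.43). Of 8 leukocyte markers 4 were seen on both arrays, with a median of -0.48 by their brightest probes. By these, Cd14 (-0.84), Lyz2 (-0.83) and Csf1r (-0.14) were lower and Itgam (0.23) was higher. Other probes gave up to 0.36 for Csf1r and down to -0.57 for Itgam, so the direction of both genes depends on the probe. The leukocyte sums of 24.5 and 27.6 were mostly Itgam. Ptprc, Adgre1 and Ctss were seen on neither array, and no probe was matched to Cd68. Of 5 adipocyte markers only Fabp4 was seen on both arrays (-1.92, sums 3.52 and 1.02), and of 5 muscle markers only Acta1 (0.79, sums 0.440 and 0.718). Adipoq and Plin1 were seen on the A-CEBP array only, and Cidec and Lep on neither. Both seen ones were dim: Adipoq read 33.1 units on the GFP array and 33.9 on the A-CEBP array, and Plin1 29.8 and 45.6. The adipocyte difference thus rests on 1 gene. Osteoblast markers were seen for 3 of 4, Dmp1 (1.31), Sp7 (0.89) and Ibsp (0.15), with sums of 66.3 and 76.6 that were mostly Ibsp. No probe was matched to the remaining one, Bglap. Endothelial markers were seen for 2 of 4, Kdr (0.09, or -0.39 with its other probe) and Pecam1 (-0.20), with sums of 7.53 and 8.005. The part of a changed cell makeup in the results was not tested, and in such bulk RNA fewer cells of a type and less RNA per cell cannot be told apart.

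Most of the pathway was close to level between the cultures, with a small lean towards A-CEBP and a few members set apart. Of the 40 measured members, 31 were higher in the A-CEBP sample at any size (77.5%), against 59.1% of all 13860 named genes. The members' median log2 difference was 0.15, against 0.05 over all genes, and the members' quartiles were 0.02 and 0.30, against -0.10 and 0.19. One member, Papss2, was at least 2-fold higher and none was at least 2-fold lower. By the same rule 2.96% of all genes differed, 1.26% upward and 1.7% downward. At 1.5-fold, 4 members were higher (4.7% of all genes) and 1 was lower (3.8%), and 35 members lay within 1.5-fold. Of all genes at least 2-fold apart, 42.4% were higher, and 66.6% with scaling on the spike-in spots. That scaling put the median over all genes at 0.27 and the members' median at 0.37. Both scalings add 1 constant to every gene, so the members' median lay 0.11 above that of all genes in either case by construction.

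**Figure D1:**
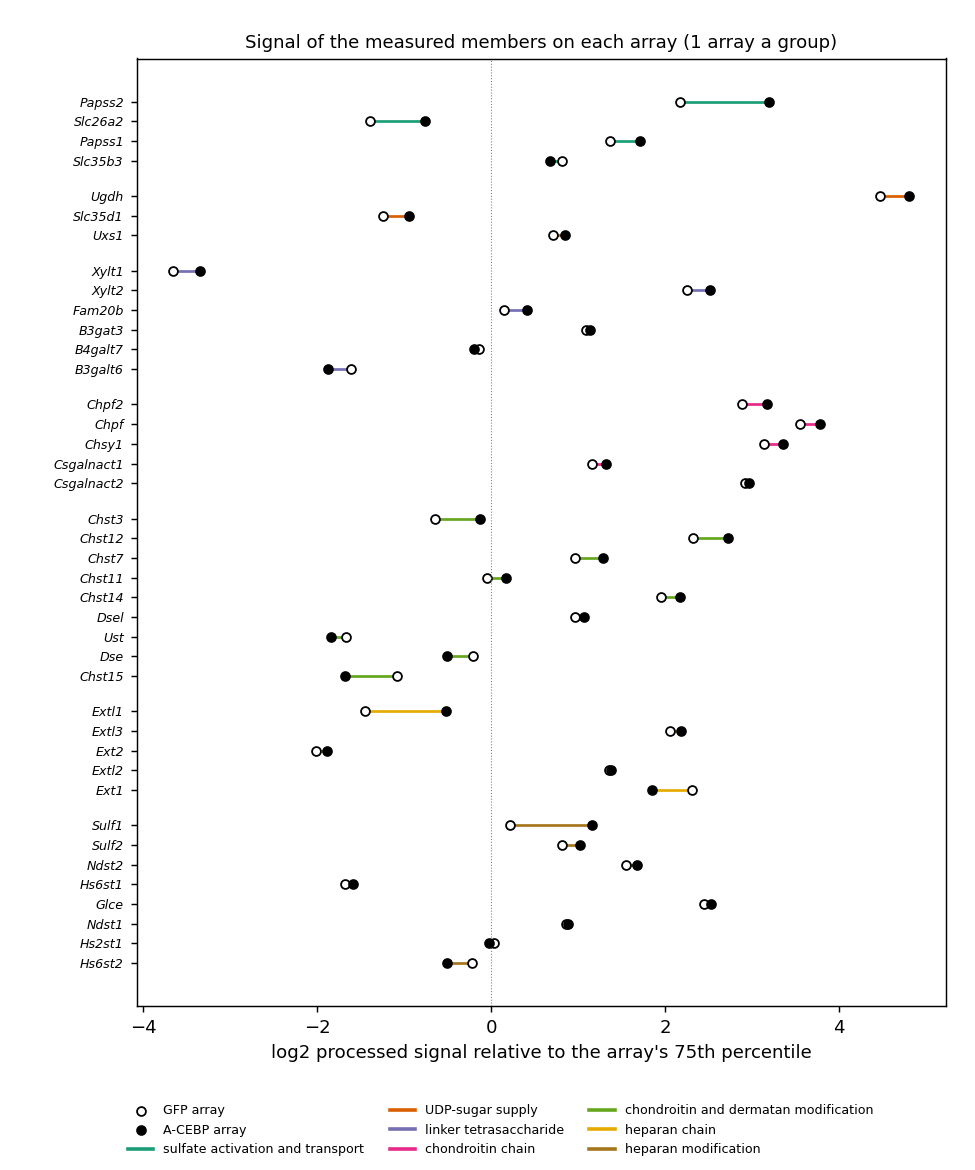
Processed signal of the 40 measured members on the GFP array (open circles) and the A-CEBP array (filled circles), as log2 relative to each array's 75th percentile, joined by a line coloured by role. Papss2, Extl1 and Sulf1 have the longest lines to the right, and Chst15 and Ext1 the longest to the left; levels of different genes are not comparable, since each probe has its own brightness.

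Sulfate activation and uptake held the largest difference of the pathway. Papss2, the PAPS synthase most tied to cartilage growth, gave 3936 units on the GFP array and 8329.8 on the A-CEBP array, or 2.17 and 3.20 relative to the 75th percentiles. It was 2.04-fold higher in the A-CEBP sample (log2 difference 1.03, scanner error 0.20), and 1.12% of all genes had a larger difference. Because it lay just past 2-fold, it fell under it with cyclic loess (0.98), normexp background (0.99) and the authors' deposited values (0.98). Slc26a2, the sulfate transporter whose loss causes diastrophic dysplasia, read 331 and 537 units and was 1.56-fold higher (0.64, error 0.21), or 0.58 with normexp background, just within 1.5-fold. The other PAPS synthase gene, Papss1, read 2248 and 2973 units, a log2 difference of 0.35. Slc35b3, a Golgi PAPS carrier, read 1535 and 1449 units, a difference of -0.14 that turned to 0.08 with spike-in scaling. Thus uptake and both synthases read higher in the A-CEBP sample, where 59.1% of all genes were higher. The Papss1 difference was 1.71 times its scanner error, within 2, and that of the measured Golgi carrier was within its error. The gap between Papss2 and Papss1 was 0.68, or 2.35 times the combined scanner error.

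The 3 genes of UDP-sugar supply were all slightly higher in the A-CEBP sample by their brighter probes, where 59.1% of all genes were higher. Ugdh, which makes UDP-glucuronic acid, read 19378 units on the GFP array and 25327 on the A-CEBP array (0.33). Slc35d1, a carrier of UDP-sugars for chondroitin synthesis, read 370 and 472 units (0.30). Uxs1, which converts UDP-glucuronic acid to UDP-xylose, gave 0.14 with its brighter probe and -0.14 with the other, so its direction depends on the probe.

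The linker enzymes were measured in full and all 6 lay within 1.5-fold, as did most genes (4.7% were higher and 3.8% lower by that size). Both xylosyltransferase genes, which start the chain on the core protein, were higher by about the same amount: Xylt1 by 0.30 and Xylt2 by 0.27, with 0.15 from the other Xylt2 probe. Xylt1 was dim, at 69.2 and 88.6 units, and its error of 0.30 was about as large as its difference. Fam20b, the kinase that phosphorylates the linker xylose, differed by 0.26. The galactosyltransferase genes B4galt7 and B3galt6 differed by -0.05 and -0.26, and B3gat3, which adds the closing glucuronic acid, by 0.05. With spike-in scaling B4galt7 turned to 0.17, and with the authors' deposited values B3gat3 turned to -0.01.

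Chondroitin polymerising genes were even in their differences. All 5 that were measured read higher in the A-CEBP sample, from 0.05 for Csgalnact2 to 0.29 for Chpf2, except that Csgalnact2 was at -0.0035 with the authors' deposited values and -0.0027 with cyclic loess. Of all genes 59.1% were above 0. Chsy1, a chondroitin synthase, read 7696 units on the GFP array and 9289 on the A-CEBP array, and its 2 probes gave 0.22 and 0.24. Its partners in the polymerase, Chpf and Chpf2, differed by 0.23 and 0.29, and the other Chpf2 probe by 0.30. The chain-starting Csgalnact1 differed by 0.17. Chsy3, a further synthase gene, read 6.59 and 4.94 units and was not well above background on either array.

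Enzymes that modify chondroitin and dermatan spread more widely, from -0.61 to 0.51 over 9 measured genes, 6 of them higher (66.7%, near the 59.1% of all genes) and 3 lower with A-CEBP. Chst3, a chondroitin sulfotransferase required for normal skeletal growth, read 558 and 826 units, a log2 difference of 0.51 (error 0.21). Its relative Chst7 differed by 0.32, and the sulfotransferases of the other ring position, Chst12 and Chst11, by 0.40 and 0.22. Chst14, the dermatan sulfotransferase, differed by 0.22. Chst15 went the other way. It forms the highly sulfated chondroitin sulfate E and read 413 units on the GFP array and 282 on the A-CEBP array, 1.52-fold lower (-0.61, error 0.21). It came within 1.5-fold with median, quantile, spike-in or no scaling and with normexp background, at -0.38 to -0.58. Its other probe read 41.9 and 28.0 units, the latter not well above background. The uronyl sulfotransferase gene Ust differed by -0.17, and by 0.05 with spike-in scaling. The 2 dermatan epimerase genes parted, Dse at -0.30 and Dsel at 0.11, a gap of 0.41 or 1.40 times the combined error. Chst13 read 12.8 and 21.8 units with one probe and 7.38 and 17.8 with the other, not well above background on either array.

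**Figure D2:**
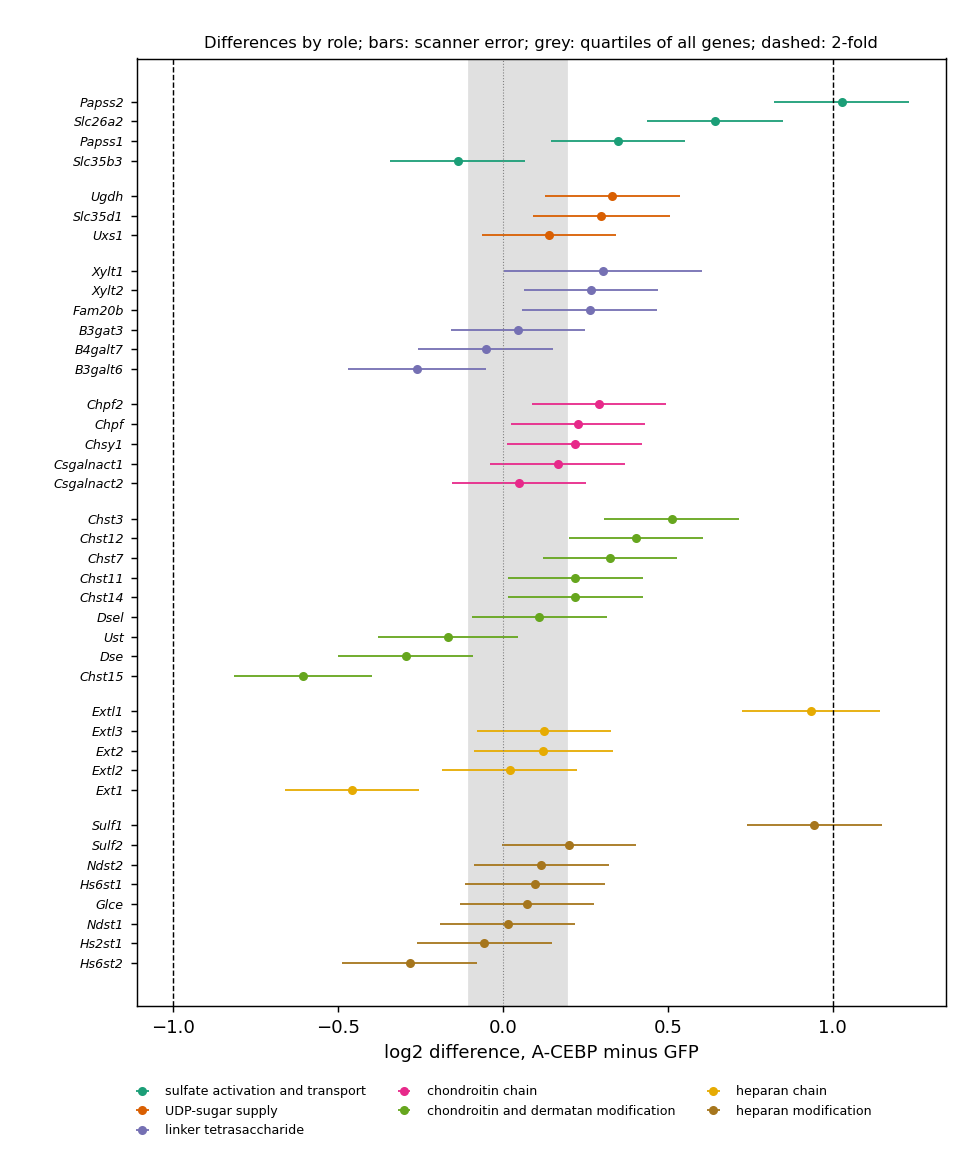
Log2 difference (A-CEBP minus GFP) of each measured member by role, with bars of 1 scanner error; the grey band spans the quartiles of all named genes (-0.10 to 0.19) and dashed lines mark 2-fold. Papss2 at 1.03 is the one point past a dashed line, and Chst15 at -0.61 is the lowest.

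Heparan chain genes held a high and a low member around a level middle. Extl1, an exostosin-like glycosyltransferase, read 318 units on the GFP array and 631 on the A-CEBP array and was 1.91-fold higher (0.94, error 0.21). Ext1, which with Ext2 forms the heparan polymerase and is a gene of hereditary multiple exostoses, read 4326 and 3271 units, 1.37-fold lower (-0.46, error 0.20). Ext2 differed by 0.12, so that the gap between the partners was 0.58, or 1.97 times the combined error. Extl3 and Extl2 differed by 0.13 and 0.02, the latter turning to -0.03 with the authors' deposited values and -0.02 with cyclic loess.

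Among the heparan modifying genes, 1 of 8 was at least 1.5-fold apart, a higher one, where 4.7% of all genes were higher and 3.8% lower by that size. Sulf1, an extracellular sulfatase that trims sulfate from heparan and so alters growth factor binding, read 1013 units on the GFP array and 2023 on the A-CEBP array. It was 1.92-fold higher (0.94, error 0.20), and a second probe, of another transcript, read 124 and 237 units and gave 0.88. Its relative Sulf2 differed by 0.20, and the gap between them, 0.74, was the widest of the 11 related pairs compared, at 2.57 times the combined error. The N-deacetylase and sulfotransferase genes Ndst1 and Ndst2 differed by 0.01 and 0.12. The other 2 probes of Ndst1 gave -0.03 and 0.45, the latter from a dim spot of 55.2 and 78.1 units. The epimerase gene Glce differed by 0.07, and Hs2st1, Hs6st1 and Hs6st2, which sulfate the finished chain, by -0.06, 0.10 and -0.28. With spike-in scaling Hs2st1 turned to 0.16, and Ndst1 was at -0.04 with the authors' deposited values and -0.03 with cyclic loess.

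The related pairs were Papss, Sulf, Xylt, Csgalnact, Chpf, Chst3 with Chst7, Chst11 with Chst12, Dse with Dsel, Ext, Ndst and Hs6st. Only the Sulf and Papss pairs of these 11 had a gap over 2 times the combined scanner error. In both the higher member was the one near 2-fold, so the gap largely restates that member's own difference. No such share was computed over pairs of other genes, so this count has no background to set it against. The median gap was 0.19. The smallest was that of Xylt1 and Xylt2, at 0.04. The chondroitin genes, chain and modification together, had a median difference of 0.22 over 14 genes, and the heparan genes 0.10 over 13. With 1 sample a group, this distance was not tested.

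In all, 7 members differed by more than 2 scanner errors, 5 of them higher with A-CEBP and 2 lower. Over all genes 13.5% did so, 8.2% higher and 5.35% lower. They were Papss2, Sulf1, Extl1, Slc26a2 and Chst3, and Chst15 and Ext1. The remaining 33 lay between -0.30 and 0.40. Each of the 7 kept its direction under the 11 other ways of processing: Papss2 ranged from 0.98 to 1.25, Sulf1 from 0.89 to 1.16, Extl1 from 0.72 to 1.16 and Slc26a2 from 0.58 to 0.86. Chst3 ranged from 0.46 to 0.73, Ext1 from -0.51 to -0.24 and Chst15 from -0.66 to -0.38. Several of these ways add the same constant to every gene or leave most members' values unchanged. For members picked for their large differences, a kept direction was thus largely fixed beforehand and is no independent check. Each of the 8 members whose sign changed under some setting had a difference of 0.17 or less in size.

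**Figure D3:**
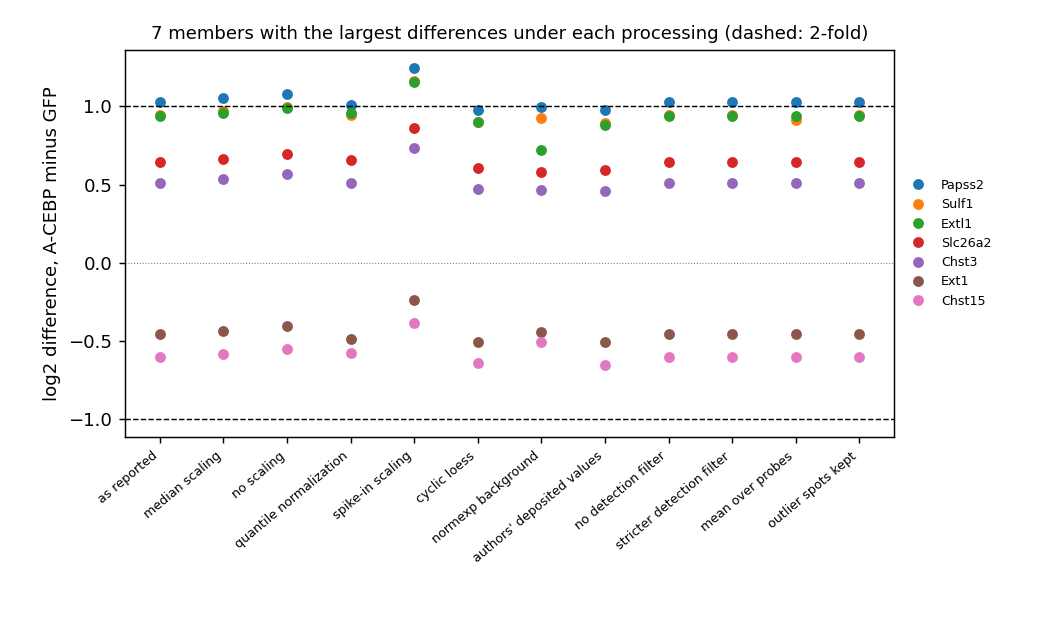
Log2 difference (A-CEBP minus GFP) of the 7 members with the largest differences, as reported and under 11 other ways of processing; dashed lines mark 2-fold. The order of sizes is similar in each column, Papss2 straddles 2-fold between 0.98 and 1.25, and spike-in scaling shifts all points upward.

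Genes that neighbour the pathway were read from 4 lists. Proteoglycan core proteins, which carry the chains, had 21 of 27 genes measured and a median of 0.08, with 11 higher and 10 lower at any size. At 1.5-fold 6 were higher and 1 was lower, against 4.7% and 3.8% of all genes. Past 2-fold was 1, a higher one, where 1.26% of all genes were higher and 1.7% lower by that size. Acan, the core protein of aggrecan, read 3720 units on the GFP array and 9487 on the A-CEBP array (1.30). The syndecan gene Sdc3 (0.86), Spock2 (0.73) and Hspg2, which encodes perlecan (0.70, or 0.35 with its other probe), were the next largest. The lowest by their brightest probes were Agrn, which encodes agrin (-0.62), and Gpc2, a glypican gene (-0.50). Vcan was at -0.37 by its brightest probe, but another of its probes gave -1.04, past 2-fold. In the list of other sulfotransferases and glycosaminoglycan enzymes, 9 of 27 were measured on both arrays, with a median of 0.25, and of these 1 was at least 2-fold higher and 0 lower. Another 4 were seen on 1 array only. Of these, Chst8, Hs3st3a1 and Slc10a7 were seen on the A-CEBP array. Their scaled signals there were 2.996-fold, 2.10-fold and 1.517-fold above the lowest signal well above background on the GFP array. Hs3st5 was seen on the GFP array, 2.395-fold above the lowest such signal on the A-CEBP array. These ratios take no account of measurement error. On each array some probes above that lowest signal were still not well above background, so the ratios are not strict lower bounds. Chst1, a sulfotransferase of keratan sulfate, read 3156 and 6786 units (1.05), whereas Chst2, which sulfates N-acetylglucosamine, read 1086 and 670.3 units and was lower (-0.75). Chst10 and Tpst2, the latter a tyrosylprotein sulfotransferase, differed by 0.61 and 0.30.

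The supply of sugar precursors had 17 of 18 genes measured, none of them at least 2-fold apart. At 1.5-fold 3 were higher and 0 lower, and the median was 0.26. Its largest differences were those of Pgm1 (0.92), Galk1 (0.88), the glucose transporter gene Slc2a1 (0.71) and Hk1 (0.55, or 0.28 with its other probe). Genes of glycosaminoglycan degradation were all measured, and none of the 17 was 1.5-fold apart. Their median was 0.16, and Ids, Arsb, Galns and Arsg led at 0.44, 0.38 (0.18 with the other probe), 0.34 and 0.28. For comparison, 4.7% of all genes were at least 1.5-fold higher and 3.8% lower, and 2.96% were at least 2-fold apart.

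**Figure D4:**
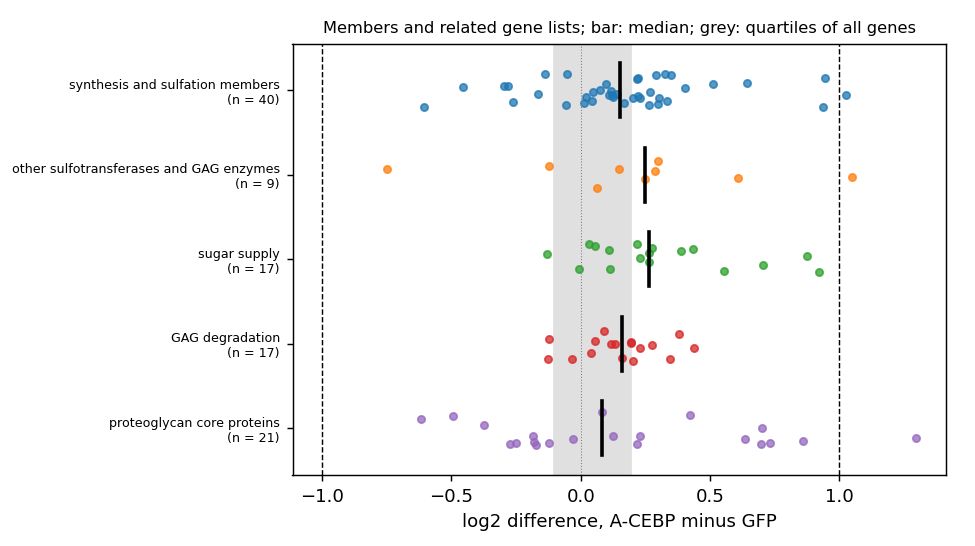
Log2 difference (A-CEBP minus GFP) of each measured gene in the 43-gene set and in 4 related lists; points are genes (jittered vertically), black bars medians, the grey band the quartiles of all genes and dashed lines 2-fold. The medians lie between 0.08 (core proteins) and 0.26 (sugar supply), and Papss2, Chst1 and Acan are the points past 2-fold.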

How the data were processed

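RNA of 1 GFP and 1 A-CEBP culture (0.1 µg each) was labelled with Cy3 and read on 1-colour Agilent mouse arrays of 1 slide in 1 scan. The deposited spot intensity, on a linear scale, came from Agilent Feature Extraction 10.10.1.1, which had subtracted background and removed spatial trends array by array, per the file headers and the submitters' processing notes, with no scaling between arrays. The deposited flags (a further, other kind of value, 0 or 1) mark spots well above background. The authors' deposited series table holds these intensities times 1 constant per array (1.24 and 1.15, medians 70.9 and 67.4), linear and not centred. The basis of the constants is not stated.

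Control spots and 293 outlier spots were left out. Log2 signals minus each array's 75th percentile were averaged over a probe's spots, a probe being seen where over 50% of its spots were well above background. The brightest probe seen on both arrays stood for a gene. Accessions were matched to RefSeq names (GRCm38.p6), naming 27229 of 55671 probes. The gene summary was run on simulated data: known fold changes put on the GFP array with replicate-spot noise and the same detection flags. That run checks the arithmetic only, since it holds no loss of detection, no spread between probes and no variation between cultures. Alternatives used limma 3.58.1 for normexp, quantile and cyclic loess. Normexp used the spots' median signal, the files used having no mean signal column. It added an offset of 50 units to each spot before the log2 step. Every member is accounted for by role, and up to 4 genes are named from each related list. The members and lists were chosen with earlier results of these data known. The number of arrays limits precision.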

Additional observations from a re-analysis of the deposited data

How the results depend on the processing

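The number of members at least 2-fold higher was 1 as reported, 3 with spike-in scaling (Papss2, Sulf1 and Extl1), and 0 with cyclic loess, with normexp background and with the authors' deposited values. No member was at least 2-fold lower under any of the 11 alternatives. The members' median moved from 0.15 to 0.37 with spike-in scaling, by that scaling's own construction, which shifts every gene alike. The count of all genes at least 2-fold apart went from 410 to 271 with normexp background and the cause was not tested. It went to 1486 with no detection filter and 230 with a stricter one, which test more and fewer genes. Over 40 members, 32 kept their sign under all alternatives that gave them a value (27 higher with A-CEBP, 5 lower). Uxs1 is among the 27 with 0.0004 for the mean over its probes, and its dimmer probe alone gave -0.14. Several alternatives shift every gene alike or leave most members' values unchanged, and no share of kept signs was computed over all genes. No paired analysis was possible because each group held 1 sample. Signals near background, as for Xylt1, limit the differences of dim probes, and no alternative stands in for a second culture.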
